A study of Mus musculus with 6 samples.

Results

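The 10 genes described here are Ankrd37, Adm, Edn1, Vegfa, Bnip3, Egln1, Egln3, Ndrg1, Ddit4 and Hif1a, known hypoxia-inducible genes together with the peptide precursors Edn1 and Adm and the oxygen-regulated transcription factor subunit Hif1a. They were found by gene symbol in a table of 19844 genes, and all 10 were present and passed the filter on low values. The set was chosen with measured values of the comparison of knockout with wild type in view. Values of the 10 genes between the genotypes are therefore a description, given without a p-value. The libraries were poly-A RNA sequencing of distal colon from 3 ChREBP knockout mice and 3 wild-type mice. ChREBP, encoded by Mlxipl, is a transcription factor that responds to glucose. All 6 mice were C57BL6, labelled female, and were sampled on day 17 of treatment with the carcinogen azoxymethane and the colitis-inducing polymer dextran sulfate sodium (AOM/DSS). The age of the mice, the deleted part of Mlxipl and the cells in which it was deleted are not stated in the labels, and the series has no group without AOM/DSS and no group exposed to low oxygen.

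Cells sense oxygen through hydroxylase enzymes of the Egln family, which use oxygen to mark the alpha subunits of the hypoxia-inducible factor (HIF) for destruction by the Vhl ubiquitin ligase complex. When oxygen falls the alpha subunit persists, pairs with Arnt and binds DNA at sites with a short core sequence, raising genes for vessel growth, glucose use, mitochondrial turnover and, as feedback, the Egln enzymes. The colon lining is known for a steep oxygen gradient towards the lumen, and inflamed colon is known to stain for low oxygen. Several of these genes also answer to other signals, such as glucocorticoids for Ddit4, so a change in their RNA does not by itself report oxygen.

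Some properties of the libraries touch the values below. Values are FPKM (fragments per kilobase of transcript, scaled to library size), and depth estimated from the FPKM worth of 1 read in short genes was 17925000 to 18775000 reads per library, so that 1 FPKM stood for 17.92 to 18.77 reads per kilobase of transcript. The targeted gene Mlxipl read 3.40, 5.66 and 5.04 FPKM in knockout replicates 1 to 3, against 5.84, 7.49 and 7.27 in wild-type replicates 1 to 3, so every knockout lay below every wild type with the transcript still present (limma adjusted p = 0.9995). Against the female label, the Y-linked genes Ddx3y, Uty, Kdm5d and Eif2s3y read between 5.67 and 30.75 FPKM in all 6 libraries and Xist between 0.02 and 0.04. Colon epithelium was present in every library, with the epithelial adhesion genes Epcam at 724.14 to 812.18 FPKM in knockouts and 684.86 to 735.65 in wild types, and Cdh1 at 311.43 to 369.82 FPKM in knockouts and 325.66 to 375.10 in wild types. In such bulk tissue, fewer cells of a type and less RNA per cell cannot be told apart. Wild-type replicate 3 stood apart in clock genes: Dbp, a clock output factor, read 0.95 FPKM there against 57.41 and 43.06 in wild-type replicates 1 and 2, and the knockouts read 5.77, 0.94 and 6.14.

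The start regions of the 4 genes with every knockout above every wild type, and of Bnip3 as a contrast that was not higher, are shown to let the HIF core be seen in place. Each is the 250 bases before the transcript start, from RefSeq on GRCm38.p6, printed 5′ to 3′ on the strand of the gene, with the HIF core in either of its forms, ACGTG or GCGTG on either strand, in capitals.
Ankrd37 at chr8:45999851-46000100, minus strand: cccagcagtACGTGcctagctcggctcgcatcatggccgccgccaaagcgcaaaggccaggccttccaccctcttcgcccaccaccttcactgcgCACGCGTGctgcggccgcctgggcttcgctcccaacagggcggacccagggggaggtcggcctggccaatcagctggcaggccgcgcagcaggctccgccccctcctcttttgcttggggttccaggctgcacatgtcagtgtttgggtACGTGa
Adm at chr7:110627407-110627656, plus strand: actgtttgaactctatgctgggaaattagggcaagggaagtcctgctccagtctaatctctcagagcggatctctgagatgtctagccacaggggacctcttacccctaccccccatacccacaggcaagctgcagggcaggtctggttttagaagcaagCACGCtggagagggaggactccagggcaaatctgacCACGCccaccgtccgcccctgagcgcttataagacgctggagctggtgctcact
Edn1 at chr13:42301226-42301475, plus strand: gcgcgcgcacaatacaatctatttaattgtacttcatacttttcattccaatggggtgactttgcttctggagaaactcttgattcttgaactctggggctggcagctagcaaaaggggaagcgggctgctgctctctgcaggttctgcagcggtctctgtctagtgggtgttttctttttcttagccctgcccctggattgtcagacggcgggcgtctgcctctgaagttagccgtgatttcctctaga
Ddit4 at chr10:59951771-59952020, minus strand: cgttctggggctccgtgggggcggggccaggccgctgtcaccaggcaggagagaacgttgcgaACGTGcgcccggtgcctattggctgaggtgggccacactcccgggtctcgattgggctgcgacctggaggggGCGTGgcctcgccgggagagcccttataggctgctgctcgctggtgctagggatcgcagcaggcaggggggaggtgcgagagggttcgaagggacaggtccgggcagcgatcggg
Bnip3 at chr7:138909507-138909756, minus strand: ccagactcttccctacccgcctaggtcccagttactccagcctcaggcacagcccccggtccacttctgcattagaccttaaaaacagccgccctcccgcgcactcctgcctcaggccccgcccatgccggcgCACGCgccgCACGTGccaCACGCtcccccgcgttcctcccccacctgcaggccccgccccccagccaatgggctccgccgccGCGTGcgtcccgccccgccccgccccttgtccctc

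The Ankrd37 window held 2 copies of ACGTG, with first bases 241 and 6 bases before the start, and an overlapping pair of GCGTG copies on opposite strands. Adm held 2 copies of GCGTG and none of ACGTG, Ddit4 held 1 of each, and Edn1 held neither. Bnip3 held ACGTG on both strands within a palindromic CACGTG, so that its 2 copies overlap, and 3 copies of GCGTG. RefSeq windows were matched for 9 of the 10 genes by symbol, in 10 windows since Vegfa has 2. ACGTG was held by 7 of the 9 genes and by 7 of the 10 windows. Vegfa, on the minus strand, counts only through its window at chr17:46025164-46025413. This window lies downstream of its other one, at chr17:46032378-46032627, which held neither ACGTG nor GCGTG. Across all 32851 windows 16.6% held ACGTG and 38.6% held ACGTG or GCGTG, and among the 13337 windows of tested genes the shares were 21% and 54.3%. Windows of the set ranged from 50.4% to 86% G and C, against a median of 59.6% for tested genes. A motif in a window is a match of letters and shows no binding. Ankrd37, with the greatest difference of the set, and Bnip3, which was not higher, both held the core.

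Some of the 10 genes were higher in knockout colon and others were not. Mean FPKM was higher in knockouts for 7 of the 10 genes and lower for 3, and the median log2 fold change was 0.31, against 0.01 over all 13247 tested genes. For 4 genes, Ankrd37, Adm, Edn1 and Ddit4, every knockout library lay above every wild-type library, and for 0 genes did every knockout lie below. Over all tested genes 4.53% had knockouts wholly above and 4.14% wholly below wild types, and nothing is read from the comparison of shares because the set was chosen on this contrast. The limma fit over all genes, with Benjamini-Hochberg adjustment, called 0 of the 10 genes at an adjusted p under 0.05, against 2 of 13247 genes (0.0151%) in all. Log2 fold changes are of FPKM + 1, knockout minus wild type, with limma's standard error (SE) and 95% interval. The interval lay above 0 for Ankrd37, Adm and Edn1 and spanned 0 for the other 7 genes. Over all tested genes it lay above 0 for 225 (1.7%), and nothing is read from this comparison either.

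**Figure D1:**
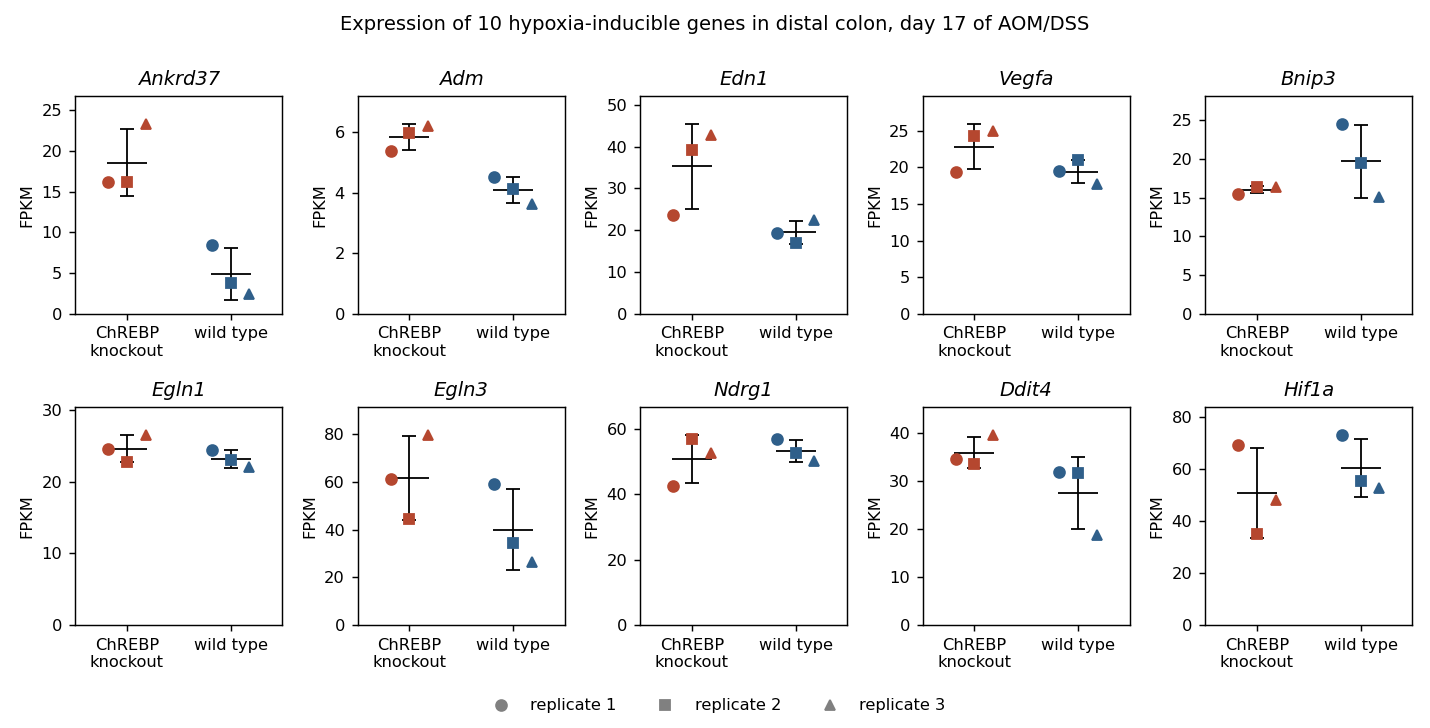
FPKM of each gene (vertical axes from 0, with a separate scale per panel) in the 3 ChREBP knockout and 3 wild-type libraries. Markers give the replicate number, horizontal lines the group mean and error bars 1 SD (n = 3). The knockout points of Ankrd37, Adm, Edn1 and Ddit4 all lie above the wild-type points, and the groups overlap in the other 6 panels.

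Ankrd37, a small nuclear ankyrin-repeat protein gene known in human cells as a direct HIF target, showed the greatest difference of the set. It read 16.15, 16.19 and 23.31 FPKM in knockout replicates 1 to 3, against 8.50, 3.74 and 2.46 FPKM in wild-type replicates 1 to 3. The lowest knockout was 7.65 FPKM above the highest wild type, more than the pooled SD of 3.68, and knockout replicate 3 was the highest library. Means were 18.6 ± 4.12 FPKM in knockouts and 4.90 ± 3.18 in wild types (SD, n = 3 each), a ratio of 3.79 in plain FPKM. The log2 fold change was 1.84 (SE 0.34, interval 1.05 to 2.63), which ranked 1 of 13247 from the highest. Nothing is read from the rank, because the set was chosen on this contrast. The log2 fold change was 1.52 without wild-type replicate 3 and 2.25 without wild-type replicate 1. Wild types themselves spread over a 3.46-fold range, against 1.44-fold in knockouts, so the wild-type mean rests on libraries that differ among themselves.

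Among the oxygen sensors and their target subunit, Egln3 had a higher mean in knockouts, Egln1 a similar one and Hif1a a lower one, with all 3 intervals spanning 0. Egln3 encodes the prolyl hydroxylase that hypoxia induces most strongly, and it read 61.29, 44.48 and 79.61 FPKM in knockouts against 59.17, 34.33 and 26.53 FPKM in wild types. The groups overlapped because wild-type replicate 1 lay above knockout replicate 2, while wild-type replicates 2 and 3 lay under all knockouts. The log2 fold change was 0.65 (SE 0.30, interval -0.04 to 1.35), and it was 0.41 without wild-type replicate 3. Egln1, the main hydroxylase of HIF at normal oxygen, read 24.61, 22.76 and 26.49 FPKM in knockouts against 24.46, 23.03 and 22.06 FPKM in wild types. It was the steadiest gene of the set within wild types, with a coefficient of variation of 5.21%, and its log2 fold change was 0.08 (SE 0.10, interval -0.14 to 0.30).

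Hif1a, the alpha subunit that these enzymes mark, is known to be set mostly by protein stability. Its RNA read 69.17, 35.10 and 47.93 FPKM in knockouts against 72.84, 55.23 and 52.42 FPKM in wild types. Replicate 1 was the highest library of each genotype, and the groups overlapped. The log2 fold change was -0.28 (SE 0.24, interval -0.82 to 0.27), and it lay between -0.53 without knockout replicate 1 and -0.05 without knockout replicate 2, so its size rested on those libraries.

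The 3 genes for secreted signals all had higher means in knockouts, to different degrees. Edn1 encodes the precursor of endothelin-1, a peptide that constricts vessels, and it read 23.71, 39.25 and 42.75 FPKM in knockouts against 19.22, 16.81 and 22.31 FPKM in wild types. The groups were apart by only 1.40 FPKM, less than the pooled SD of 7.43, because knockout replicate 1 was close to wild-type replicate 3. Means were 35.2 ± 10.1 FPKM in knockouts and 19.4 ± 2.76 in wild types (SD, n = 3 each), and the log2 fold change was 0.79 (SE 0.22, interval 0.29 to 1.29), or 1.05 without knockout replicate 1.

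Adm encodes the precursor of adrenomedullin, a peptide that widens vessels and tightens the endothelium. It was the lowest gene of the set and read 5.38, 5.96 and 6.20 FPKM in knockouts against 4.51, 4.12 and 3.63 FPKM in wild types. The gap of 0.87 FPKM between the groups was larger than the pooled SD of 0.431 FPKM. Means were 5.85 ± 0.422 FPKM in knockouts and 4.09 ± 0.441 in wild types (SD, n = 3 each), a ratio of 1.43, and the log2 fold change was 0.43 (SE 0.12, interval 0.16 to 0.70).

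Vegfa, the vascular endothelial growth factor gene and the best known HIF target, had a smaller difference. It read 19.34, 24.30 and 24.96 FPKM in knockouts against 19.57, 20.96 and 17.76 FPKM in wild types. Knockout replicate 1 fell among the wild types, while knockout replicates 2 and 3 lay above them. The log2 fold change was 0.22 (SE 0.12, interval -0.07 to 0.50), and it was 0.33 without knockout replicate 1.

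The 3 genes that act inside the cell on growth and mitochondria did not share a direction. Ddit4, also called REDD1, restrains the growth kinase complex mTORC1 and answers to hypoxia, starvation and glucocorticoids. It read 34.50, 33.45 and 39.44 FPKM in knockouts against 31.84, 31.69 and 18.81 FPKM in wild types. Knockouts lay above wild types by a gap of 1.61 FPKM, less than the pooled SD of 5.75, and wild-type replicate 3 was well below the other libraries. The log2 fold change was 0.41 (SE 0.20, interval -0.05 to 0.86) and 0.16 without wild-type replicate 3, so its size rested on that library.

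Bnip3, a mitochondrial protein gene that promotes the removal of mitochondria in low oxygen, read 15.52, 16.31 and 16.31 FPKM in knockouts against 24.50, 19.42 and 15.08 FPKM in wild types. Knockouts were close together, with a coefficient of variation of 2.84%, against 24.0% in wild types, and 2 of the 3 wild types lay above all knockouts. The log2 fold change was -0.25 (SE 0.16, interval -0.62 to 0.12), -0.42 without wild-type replicate 3 and -0.09 without wild-type replicate 1. Ndrg1, a stress-response gene raised by hypoxia and linked to differentiation of colon epithelium, read 42.70, 56.93 and 52.83 FPKM in knockouts against 57.05, 52.57 and 50.37 FPKM in wild types. Knockout replicate 1 lay below every wild type and the other knockouts among or near them, and the log2 fold change of -0.08 (SE 0.12, interval -0.36 to 0.21) became 0.04 without knockout replicate 1.

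**Figure D2:**
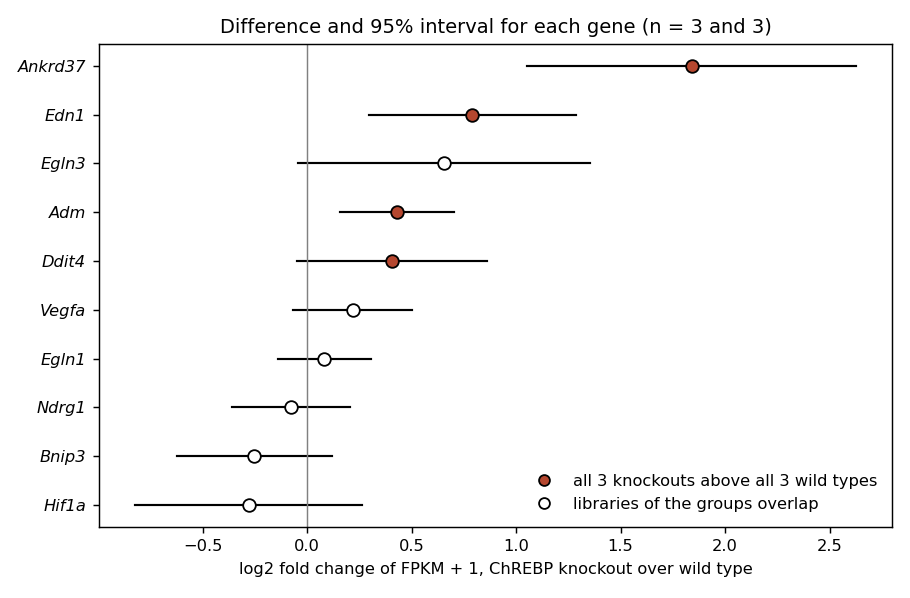
Log2 fold change of FPKM + 1 in ChREBP knockout over wild type (horizontal axis) for each of the 10 genes, with limma's 95% interval as a line. Filled points mark the 4 genes whose knockout libraries all lie above the wild-type libraries, and the intervals of Ankrd37, Edn1 and Adm alone lie clear of 0.

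By level, which FPKM gives per length of transcript, the set fell into an order that few neighbours held in all libraries. Means over the 6 libraries were 55.4 FPKM for Hif1a, 52.1 for Ndrg1, 50.9 for Egln3, 31.6 for Ddit4, 27.3 for Edn1, 23.9 for Egln1, 21.1 for Vegfa, 17.9 for Bnip3, 11.7 for Ankrd37 and 4.97 for Adm. Of these neighbours, Egln3 lay above Ddit4 in 6 of 6 libraries, and each other pair of neighbours changed order in at least 1 library. Ankrd37 exceeded Adm in 4 of 6 libraries, since wild-type replicates 2 and 3 had less Ankrd37 than Adm.

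The members also varied within the wild-type group, most of them in the same order of libraries. In 8 of the 10 genes wild-type replicate 1 was highest, replicate 2 between and replicate 3 lowest of the 3 wild types, a pattern present in 20.6% of all tested genes. The exceptions were Edn1 and Vegfa. Among 65 other tested HIF targets, described below, the same pattern held in 17 (26.2%), so most of those genes did not follow it. Of 15 core clock genes, also described below, 7 (46.7%) had it. Knockout replicate 3 was the highest of all 6 libraries in 7 of the 10 genes, and wild-type replicate 3 the lowest of all 6 in 7 genes, which the choice of genes on this contrast favours. Over all tested genes the shares were 15.9% and 22.4%, and among the 65 other targets 16.9% and 30.8%. The 65 were not uniform. Among the 19 of glucose and lactate metabolism the shares were 10.5% and 47.4%, and among the other 46 they were 19.6% and 23.9%. All these counts are descriptive, and the 10 genes are not independent of each other.

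**Figure D3:**
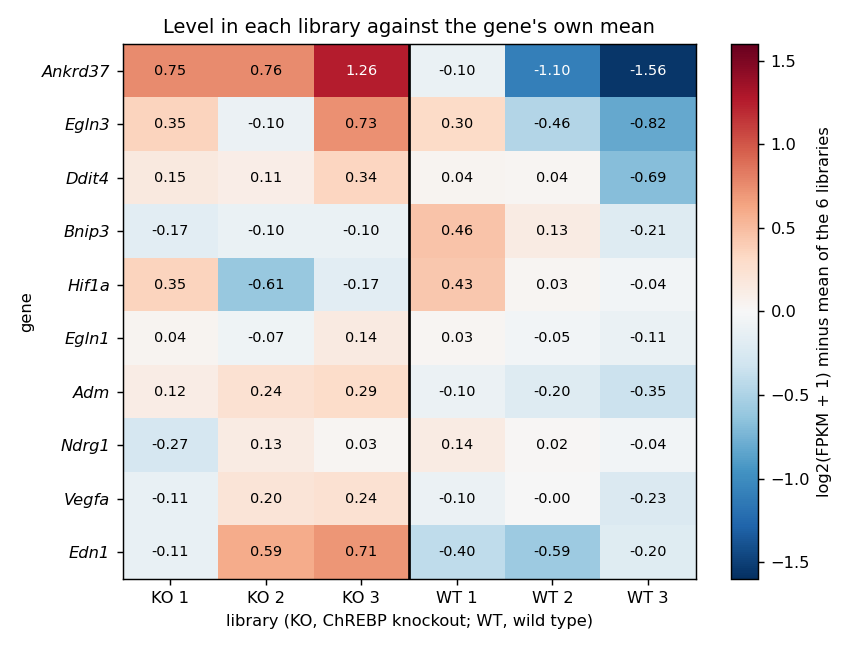
Log2(FPKM + 1) of each gene (rows) in each library (columns) minus the gene's mean over the 6 libraries, with the value printed in each cell (red above, blue below the mean). Wild-type replicate 3 holds the lowest cell of the row in 7 genes, and Bnip3, Ndrg1 and Hif1a are highest in wild-type replicate 1.

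Taking Ankrd37 as the reference profile, Pearson correlations of log2(FPKM + 1) over the 6 libraries were 0.98 for Adm, 0.88 for Egln3, 0.83 for Ddit4, 0.75 for Edn1, 0.74 for Egln1 and 0.70 for Vegfa, and -0.05, -0.14 and -0.20 for Ndrg1, Bnip3 and Hif1a. These values include the difference between genotypes. After subtracting each genotype's mean they were 0.93 for Egln3, 0.92 for Bnip3, 0.88 for Adm, 0.78 for Egln1 and 0.77 for Ddit4. Lower values were 0.45 for Ndrg1, 0.41 for Hif1a, 0.37 for Vegfa and 0.08 for Edn1. Bnip3 followed Ankrd37 in the wild types, where it read 24.50, 19.42 and 15.08 FPKM. In knockout replicates 2 and 3 Bnip3 read 16.31 FPKM in both, while Ankrd37 read 16.19 and 23.31. Its value of 0.92 thus rests mainly on the wild types. Edn1 shared the direction of the genotype difference with Ankrd37 but did not follow it in the wild types, where it was highest in replicate 3 and Ankrd37 lowest. In knockouts both were highest in replicate 3. Among 9070 protein-coding genes with a mean of at least 5 FPKM, 92 (1.01%) exceeded 0.9 over the 6 libraries, and 116 (1.28%) did so after subtracting genotype means. The 5 closest of these 9070 were Arpc1a, an actin nucleation subunit, at 0.99, the phosphatase gene Ptpn2 at 0.98, Zbtb42 at 0.98, the kinase gene Dapk3 at 0.98 and Ankra2 at 0.98. None of these 5 belongs to the set, but Adm, at 0.98 as close as most of them, was no candidate because its mean of 4.97 FPKM lay under the limit. Their own differences were small beside that of Ankrd37, with Arpc1a at 47.66, 47.65 and 49.40 FPKM in knockouts against 46.09, 43.19 and 43.13 in wild types.

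Core clock genes, the transcription factors of the daily rhythm, differed between libraries, within wild types too. A clock score, the mean standardised level of 15 core clock genes signed by phase, was -0.35, -0.84 and -0.05 in knockout replicates 1 to 3 and 1.16, 1.01 and -0.94 in wild-type replicates 1 to 3. The genes Per2 and Per3, repressors of the loop, were lowest in replicate 3 among wild types: Per2 read 3.87 to 7.68 FPKM in knockouts and 5.75 to 21.70 in wild types, and Per3 3.93 to 5.21 in knockouts and 3.61 to 11.51 in wild types. Arntl read 17.20 to 26.30 FPKM in knockouts and 6.33 to 26.90 in wild types, highest in wild-type replicate 3. Nr1d1 read 27.65 to 80.01 FPKM in knockouts and 16.13 to 94.62 in wild types. Its log2 fold change was 0.09, and that of Cry1 was -0.01. Over the 15 genes 11 log2 fold changes were negative and 4 positive, with a median of -0.64, and limma called 0. In 1 gene (6.67%) every knockout lay below every wild type, against 4.14% of all tested genes. With the score as a covariate the log2 fold change was 2.26 for Ankrd37, 1.03 for Egln3, 0.69 for Edn1, 0.69 for Ddit4, 0.51 for Adm and 0.28 for Vegfa, so of these 6 differences that of Edn1 alone was nearer 0 than without it. That of Bnip3 went to -0.06 and that of Hif1a to -0.12, both nearer 0. The score was itself partly aligned with genotype, negative in all knockouts and at 1.16 and 1.01 in wild-type replicates 1 and 2. With 6 libraries the fit separates the score from genotype poorly. The part of the clock in these differences was not tested. Over the 6 libraries, which share the genotype difference, the score correlated at 0.89 with Bnip3, 0.57 with Hif1a, -0.57 with Edn1 and -0.14 with Ankrd37.

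The rest of the oxygen-sensing machinery had similar levels in both genotypes. Of 15 genes 14 were tested, 0 were called in either direction by limma over all genes, 0 had an unadjusted p under 0.05, and the median log2 fold change was 0.04. All 14 of 14 intervals were inside a 2-fold change, as were 12846 of those of all 13247 tested genes. Epas1, the second alpha subunit, read 31.76, 38.15 and 50.77 FPKM in knockouts against 37.79, 36.14 and 43.29 in wild types (interval -0.37 to 0.40). Arnt, the shared partner, read 16.91, 16.71 and 18.17 FPKM in knockouts against 17.57, 17.28 and 16.66 in wild types (interval -0.20 to 0.21). The recognition subunit Vhl read 7.90, 9.18 and 8.89 FPKM in knockouts against 7.65, 8.33 and 9.21 in wild types, and the third hydroxylase Egln2, which is known not to be induced by hypoxia, 30.07, 29.90 and 29.47 in knockouts against 32.09, 29.79 and 25.35 in wild types. Differences between groups in these 4 genes were within the spread of the libraries. The asparagine hydroxylase Hif1an, the ligase subunits Tceb1, Tceb2, Cul2 and Rbx1, the coactivators Ep300 and Crebbp, the ligases Siah1a and Siah2 and the further subunit Hif3a had log2 fold changes between -0.08 and 0.15. Arnt2 was below the filter.

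Among other HIF targets no difference passed the test. Of 65 tested targets outside the set, limma over all genes called 0 higher and 0 lower (each adjusted p = 0.9995). In the same fit 5 had an unadjusted p under 0.05, against 450 of all 13247 tested genes. Log2 fold changes were above 0 in 43 (66.2%) and below 0 in 22, around a median of 0.06, while 52.7% of all tested genes were above 0. With every library scaled to an equal FPKM total, 37 of the 65 were above 0 and 28 below. Among 19 genes of glucose and lactate metabolism 16 were positive with a median of 0.09. The glucose transporter Slc2a1 read 78.40, 67.21 and 86.04 FPKM in knockouts against 71.27, 63.72 and 66.76 in wild types, and its groups overlapped (log2 fold change 0.19, or 0.11 without knockout replicate 3). Pdk1, a pyruvate dehydrogenase kinase, read 11.80, 10.72 and 13.68 FPKM in knockouts against 11.86, 12.44 and 11.46 in wild types, a log2 fold change of 0.01 with an interval of -0.25 to 0.27. The highest log2 fold changes were those of the hexokinase Hk2 (0.57, interval 0.06 to 1.09), the lactate exporter Slc16a3 (0.55, interval -0.09 to 1.19) and the regulator Pfkfb3 (0.35, interval -0.12 to 0.82), and the lowest those of Hk1 (-0.20), Slc2a3 (-0.13) and Aldoc (-0.07). Slc16a3 was at 0.20 without knockout replicate 1 and Pfkfb3 at 0.17 without wild-type replicate 3, so the size of both depended on single libraries. Pgk1 and Ldha, which have processed pseudogenes that could share reads, had values of 0.03 and 0.10.

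Of the 46 tested targets with other roles 27 were above 0 and 19 below, with a median log2 fold change of 0.03, and with libraries scaled to an equal total 23 were above and 23 below. Car9, the carbonic anhydrase used as a tissue marker of hypoxia, read 35.20, 28.08 and 26.33 FPKM in knockouts against 29.14, 26.12 and 24.54 in wild types (log2 fold change 0.15, interval -0.14 to 0.45), overlapping between groups. The histone demethylase Kdm3a read 16.69, 18.56 and 23.93 FPKM in knockouts against 16.94, 15.76 and 16.21 in wild types (0.25, interval -0.07 to 0.56). Bnip3l, the close relative of Bnip3, read 37.72, 41.00 and 43.17 FPKM in knockouts against 36.90, 35.21 and 40.35 in wild types (0.11, interval -0.11 to 0.34). Single libraries moved these values: Car9 was at 0.03 without knockout replicate 1, and without knockout replicate 3 Kdm3a was at 0.10 and Bnip3l at 0.07. Log2 fold changes of the collagen hydroxylase P4ha1, the oxidase Ero1l, Bhlhe40 and Angptl4 lay between -0.02 and 0.17.

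The extremes of that list went both ways. The ephrin ligand Efna1 had the highest log2 fold change (0.81, interval 0.31 to 1.31), at 55.33, 76.01 and 76.72 FPKM in knockouts against 48.60, 42.95 and 27.66 in wild types, so the groups did not overlap. It was followed by the inducible nitric oxide synthase Nos2 (0.43, interval -0.91 to 1.77) and the mitochondrial adenylate kinase Ak4 (0.43, interval 0.10 to 0.77). Nos2 read 20.29, 7.59 and 2.66 FPKM in knockouts against 9.12, 4.68 and 3.72 in wild types, and its sign changed without knockout replicate 1. Among the lowest were the transferrin receptor Tfrc (-0.42, interval -0.77 to -0.07) and the ephrin ligand Efna3 (-0.41, interval -0.74 to -0.08). Tfrc read 28.09, 24.63 and 28.85 FPKM in knockouts against 34.56, 45.93 and 30.83 in wild types, with every knockout below every wild type, and was at -0.26 without wild-type replicate 2. None of these 5 genes passed the adjusted threshold in limma.

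**Figure D4:**
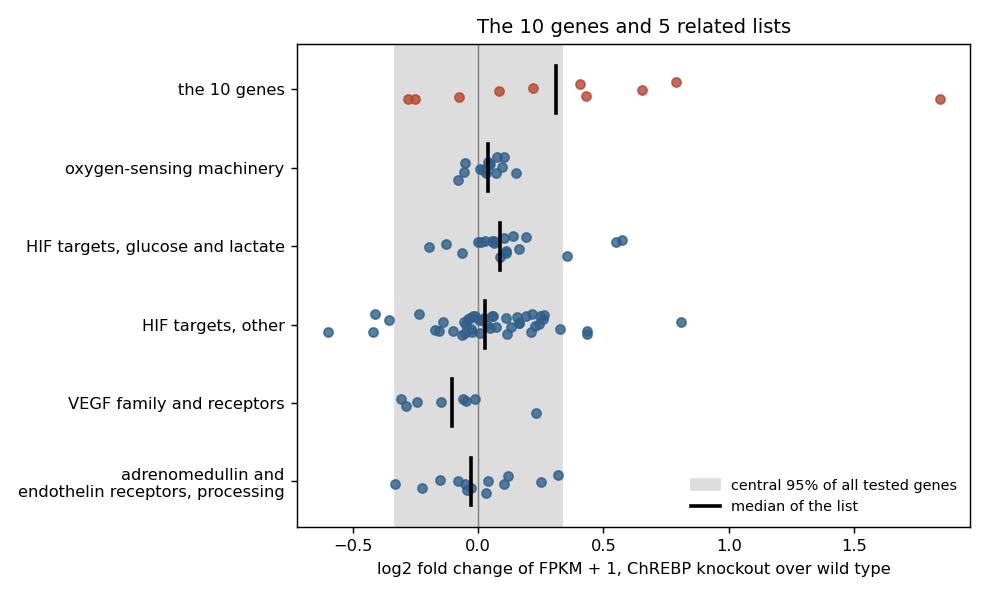
Log2 fold change of FPKM + 1 in ChREBP knockout over wild type (horizontal axis) for the 10 genes and for 5 lists of related genes (rows), 1 point per tested gene, with the median as a black bar. The grey band holds the central 95% of all tested genes, from -0.33 to 0.34. Ankrd37, Edn1, Egln3, Adm and Ddit4 lie to its right, and the medians of the other lists lie between -0.10 and 0.09. The 10 genes were chosen on this contrast, so nothing is read from their place beside the band or the lists.

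For receptors of the secreted members, no difference passed the test. In the list of VEGF relatives and receptors 8 of 9 genes were tested, and limma called 0 with 0 at an unadjusted p under 0.05. Log2 fold changes were negative in 7, against 6261 of all 13247 tested genes, and the median of the list was -0.10. Kdr, the main signalling receptor of Vegfa on endothelium, read 4.81, 2.79 and 3.17 FPKM in knockouts against 4.80, 4.25 and 4.72 in wild types (log2 fold change -0.31, interval -0.70 to 0.09, or -0.49 without knockout replicate 1 and -0.18 without knockout replicate 2). Flt1, the decoy receptor, read 4.31, 2.31 and 4.05 FPKM in knockouts against 3.75, 3.39 and 3.72 in wild types, and the relative Vegfb 13.59 to 19.68 in knockouts against 12.51 to 15.03 in wild types. Kdr was lowest in knockout replicates 2 and 3, and the groups overlapped for all 3 genes. The other tested members, Vegfc, Figf, Flt4, Nrp1 and Nrp2, had log2 fold changes between -0.29 and -0.01, and Pgf was below the filter.

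Receptors and processing enzymes of adrenomedullin and endothelin were divided in sign. Of 15 genes 13 were tested, limma called 0 with 0 at an unadjusted p under 0.05, and 6 genes lay above 0 and 7 below, around a median log2 fold change of -0.03. Calcrl, the receptor that binds adrenomedullin with a Ramp partner, read 5.84, 4.84 and 5.06 FPKM in knockouts against 5.97, 6.63 and 6.26 in wild types, every knockout below every wild type by a gap of 0.13 FPKM (log2 fold change -0.22, interval -0.48 to 0.03). Its partner Ramp2 read 16.78, 19.19 and 14.82 FPKM in knockouts against 17.02, 18.74 and 16.42 in wild types, and Ramp3, a further partner, 2.13, 2.33 and 1.80 in knockouts against 1.84, 1.52 and 1.41 in wild types. Both partners overlapped between groups. The endothelin receptors Ednra and Ednrb had log2 fold changes of 0.03 (interval -0.34 to 0.41) and -0.08 (interval -0.39 to 0.23). Ece1, which cleaves the endothelin precursor, and Pam, which amidates adrenomedullin, were at -0.03 and -0.05. The remaining tested genes, Ramp1, Ackr3, Edn2, Edn3, Ece2 and the mast cell protease Cma1, lay between -0.33 and 0.32, and Adm2 and Mme were below the filter.

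Markers of other cell types were read beside these values. The summed level of 9 endothelial markers was 66.2 to 77.7 FPKM in knockouts and 65.8 to 70.8 in wild types, with 0 of the 9 listed at 0, and Pecam1 read 19.79 to 24.21 FPKM in knockouts and 20.37 to 22.91 in wild types. Of these 9, Cldn5 and Esam, named after their values were seen, had every knockout above every wild type, as had 4.53% of all tested genes. Cldn5 read 4.66, 5.30 and 5.44 FPKM in knockouts against 3.43, 3.33 and 4.03 in wild types. Log2 fold changes of the 9 were above 0 in 7, with Pecam1 at 0.04, and below 0 in 2, Emcn (-0.13) and Tek (-0.03). The summed level of 5 smooth muscle markers was 2269 to 3433 FPKM in knockouts, highest in replicate 3, where 7 of the 10 genes were also highest, and 2017 to 2795 in wild types. That of 6 neutrophil markers was 6.17 to 18.4 FPKM in knockouts, highest in replicate 1, and 5.78 to 7.36 in wild types, with Mmp8 and Retnlg at 0 or up to 0.56 FPKM. The groups overlapped in these sums and in those that follow. Macrophage markers (6 genes) summed to 122 to 218 FPKM in knockouts and 148 to 211 in wild types, and fibroblast markers (6) to 630 to 702 in knockouts and 576 to 729 in wild types. Epithelial markers (8) summed to 5650 to 6205 FPKM in knockouts and 5481 to 5878 in wild types, and red cell markers (6) to 70.8 to 119 in knockouts and 57.2 to 141 in wild types. The part of these differences in the values of the 10 genes was not tested.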

How the data were processed

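Gene expression was analysed in 6 distal colon libraries, 3 ChREBP knockout and 3 wild type, grouped by the genotype label. Poly-A RNA was selected, fragmented and copied with random primers, per the labels' protocols, which name no step that marks strand, so antisense reads cannot be told apart. The authors deposited FPKM values with 2 decimals for 19844 genes. HISAT2, RSEM and mm39 are listed in the submitters' processing notes, with neither versions nor filters. The 27 symbols that had become spreadsheet dates were restored by gene ID, and 19794 gene IDs matched the RefSeq gene table.

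The 13247 genes that reached 1 FPKM in 3 or more libraries were tested on log2(FPKM + 1) with limma 3.58.1 in R 4.3.3 (genotype only, eBayes with trend; two-sided). P-values were adjusted by Benjamini-Hochberg over all of them, with a threshold of 0.05. The pseudocount of 1 understates changes of low genes. The fit was checked on simulated data. Depth came from short non-coding genes, whose FPKM steps by whole reads (82.1% to 88.9% of values within 0.05 of a whole read, with a length offset of 37 bases). Replicates are labelled as separate samples, and p-values measure the spread between them.

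The 10 genes and the lists were chosen with earlier results of these data known. Named genes were the members, all genes of the short lists, and of the longer target lists a fixed set plus the 3 highest and 3 lowest log2 fold changes, of which 1 gene is not reported here. Of cell type and clock lists, a few marked genes were named, and 5 genes were named by likeness to Ankrd37. Alternatives were other pseudocounts, filters, scalings and variance models, the replicate number as a block, the clock score as a covariate, and leaving out each library. Of 182 list entries 181 matched a gene. Promoter windows came from a RefSeq table of GRCm38.p6, a build other than that of the values, so its coordinates describe only the sequences. Python 3.11.15 (pandas 2.3.3, numpy 2.4.6) made the tables and matplotlib 3.10.9 the figures.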

Additional observations from a re-analysis of the deposited data

How the results depend on the processing

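The fit over all genes called 2 genes, neither among the 10 nor in any list of the report. The number called was 3 with a pseudocount of 0.1, with no filter, with eBayes without trend and with a weight per library. A pseudocount of 5 gave 1. A mean of at least 5 FPKM, the clock score as a covariate and the replicate number as a block each gave 0. Leaving out a library gave between 0 and 1. The 10 genes and the related pathway lists had 0 calls under every one of these settings. The median log2 fold change of the 10 genes, 0.31, lay between 0.16 (without wild-type replicate 3) and 0.38 over the fits that left out a library. Of the 10 differences 7 were positive, or 8 without knockout replicate 1, and 6 of the 9 genes left by the filter at 5 FPKM. Of 159 recomputed differences 158 stayed within 1 SD of the libraries, the exception being Adm with a pseudocount of 5, at 0.26. Adm, with a mean of 4.97 FPKM, was the gene that filter left out. Of the 10 genes Ndrg1 alone changed sign. The replicate block left the log2 fold changes as they were and changed no other call. Deviations from the genotype means correlated at 0.27, -0.10 and 0.06 between libraries of the same number, so the numbers were not taken to pair mice. Of the 5 genes most like Ankrd37, 0 were among the 5 closest after subtracting genotype means and 4 with a pseudocount of 0.1. With 3 mice a group, the interval of Egln3 includes both no difference and a 2-fold one.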
